A study of Arabidopsis thaliana with 5 samples.

Results

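The genes described here are 10 members of the alpha-expansin (EXPA) family of Arabidopsis thaliana, EXPA1, 3, 4, 5, 6, 8, 10, 11, 15 and 16. They were selected by gene identifier, with earlier results of these data known, and make up 10 of the 24200 genes in the table. Transcripts were measured by RNA sequencing of leaf epidermal protoplasts from seedlings 9 days post germination. Intact leaves are not among these samples, so any effect of making protoplasts on the levels of wall genes was not tested. Wild type (WT) is represented by 3 libraries. The mutant hdl, grown from hdl-1 seed and altered in the gene HOMEODOMAIN-LIKE, is represented by 2. Plants of both genotypes carried the AtML1pro:RCI2A-mCherry reporter, a membrane marker driven by a promoter active in the epidermis, and about 20000 mCherry-positive cells were collected per sample by fluorescence-activated sorting. For every sample stratification lasted 2 days at 4 °C and the RNA input was 10 to 20 ng. All 5 samples carry batch number 1, and 1 mutant line was measured. Nothing in the labels ties the replicates to separate cultures or plants. The p-values therefore reflect the variation among these samples alone, and that variation may be technical.

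Expansins are secreted proteins that loosen the plant cell wall without cutting its polymers. They act best at acid pH, which the plasma membrane proton pumps provide, and they weaken contacts between cellulose and the polymers that coat it, so that turgor can stretch the wall. Expanding leaves express several alpha-expansin genes, and the epidermis is widely held to limit the growth of the whole organ.

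Values are normalized counts, that is, reads per gene divided by a scaling factor for each library. Where values are listed for the libraries of a genotype, they follow the replicate number. The reads behind them numbered 15418154 to 22838239 per library. Across genes, the libraries of WT correlated at Pearson's r of 0.939 to 0.968, the pair of hdl libraries at 0.942, hdl replicate 2 and WT at 0.921 to 0.945, and hdl replicate 1 and WT at 0.890 to 0.912; genes are not independent replicates. hdl replicate 1 thus stood farthest from WT, and it also lay farther from the WT mean than hdl replicate 2 for 8 of the 10 EXPA genes. WT replicate 2 was the lowest WT library for 9 of them. Over all genes the normalized counts came to a total of 24548412 ± 227670 in hdl (SD, n = 2), above the 19625532 ± 527832 of WT (SD, n = 3), so values with the libraries rescaled to equal totals are also given where that changes a call of a member or a count of calls in a list. The level of the mutated gene itself was not analysed here.

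EXPA10, EXPA8 and EXPA3 were higher and EXPA4 was lower in the sorted cells of hdl. The other 6 genes did not pass the threshold, an adjusted p under 0.05 from limma over all 20391 genes tested. All 10 members passed the filter on low values, which asked for 10 or more normalized counts in 2 or more libraries. The test called 8.21% of all tested genes higher and 4.5% lower, against 3 and 1 of the 10 members. On the recovered reads edgeR called the same 4 members, beside 7.97% of all genes higher and 4.08% lower, and DESeq2 called 4 higher and 2 lower, beside 12.8% and 10.6%. With libraries rescaled to equal totals 3 members were higher and 2 lower, beside 4.86% and 12.5%. The median log2 change of the members was 0.69, and that of all tested genes was -0.05. For 9 members the hdl libraries lay outside the range of the WT libraries, 5 above and 4 below. Such a separation was common in these data, with 26.7% of tested genes above and 26.9% below.

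**Figure D1:**
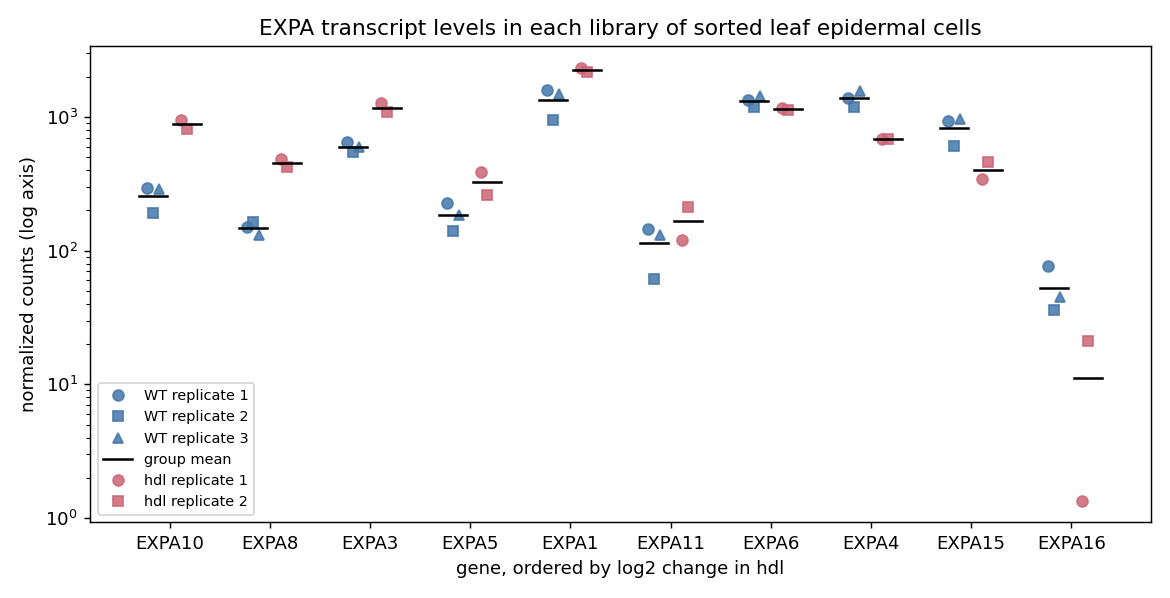
Normalized counts (log axis) of the 10 EXPA genes in each of the 3 WT (blue) and 2 hdl (red) libraries, ordered from the most positive to the most negative log2 change; horizontal lines are group means. The hdl points of EXPA10, EXPA8 and EXPA3 lie above all WT points and those of EXPA4 below them, whereas the points of EXPA11 overlap and those of EXPA16 in hdl lie far apart, at 1.35 and 21.0.

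EXPA10 showed the most positive change of the family. It is known from plants with altered EXPA10 expression as a gene that promotes growth of the leaf blade and petiole. The gene (AT1G26770) lies on chromosome 1 from 9259432 to 9261313 on the plus strand of TAIR10.1. It had 296, 191 and 288 normalized counts in WT, against 946 and 817 in hdl. Every hdl library was thus well above every WT library, and the spread within each genotype was small beside the gap between them. The hdl mean was 3.41 times the WT mean, with a log2 change of 1.79 ± 0.25 (SE, adjusted p = 0.0111). This call was also made by edgeR (adjusted p = 0.00928) and by DESeq2 (adjusted p = 2.39e-08) on the recovered reads, and with equal library totals (log2 change 1.47, adjusted p = 0.0194).

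EXPA8, which with EXPA1 is a known direct target of the growth-promoting transcription factor HBI1, moved by a like amount from a lower level. The gene (AT2G40610) lies on chromosome 2 from 16948791 to 16950705 on the minus strand. Its normalized counts were 152, 165 and 130 in WT, against 486 and 426 in hdl. WT replicate 3 was the lowest WT library here, unlike for the other 9 genes. The hdl mean was 3.06 times the WT mean (log2 change 1.61 ± 0.22, SE; adjusted p = 0.0109).

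EXPA3 (AT2G37640, annotated as EXP3), on chromosome 2 from 15787523 to 15790139 on the minus strand, was the third member to rise. It had 653, 551 and 593 normalized counts in WT, against 1265 and 1087 in hdl. The WT values differed little, with a coefficient of variation of 8.61%, the lowest among the 10 genes in WT. The hdl mean was 1.96 times the WT mean, with a log2 change of 0.97 ± 0.16 (SE, adjusted p = 0.0172).

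EXPA4 (AT2G39700), on chromosome 2 from 16543832 to 16545746 on the minus strand, was the only member called lower. It had 1397, 1198 and 1576 normalized counts in WT, against 687 and 688 in hdl. The hdl libraries were nearly equal and below every WT library. The WT mean was 2.02 times the hdl mean, with a log2 change of -1.01 ± 0.16 (SE, adjusted p = 0.0169).

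These 4 calls rested on few libraries. None of the members was called without hdl replicate 1, when 0 genes of the whole table were called higher and 0 lower (EXPA10 then had an adjusted p of 0.0991, EXPA8 of 0.102, EXPA3 of 0.146 and EXPA4 of 0.124), or without WT replicate 3 (0.0508, 0.0540, 0.0772 and 0.0726), when 358 genes were higher and 69 lower; EXPA4 also failed without WT replicate 1 (0.0644) and, like EXPA3 (0.0517), without hdl replicate 2 (0.0695), and without an intensity trend both failed (EXPA3 0.0534, EXPA4 0.0563). At an unadjusted p under 0.05 limma had 3 members higher and 1 lower without hdl replicate 1, beside 2030 and 1976 of all genes, and 4 and 2 without WT replicate 3, beside 2831 and 2011.

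**Figure D2:**
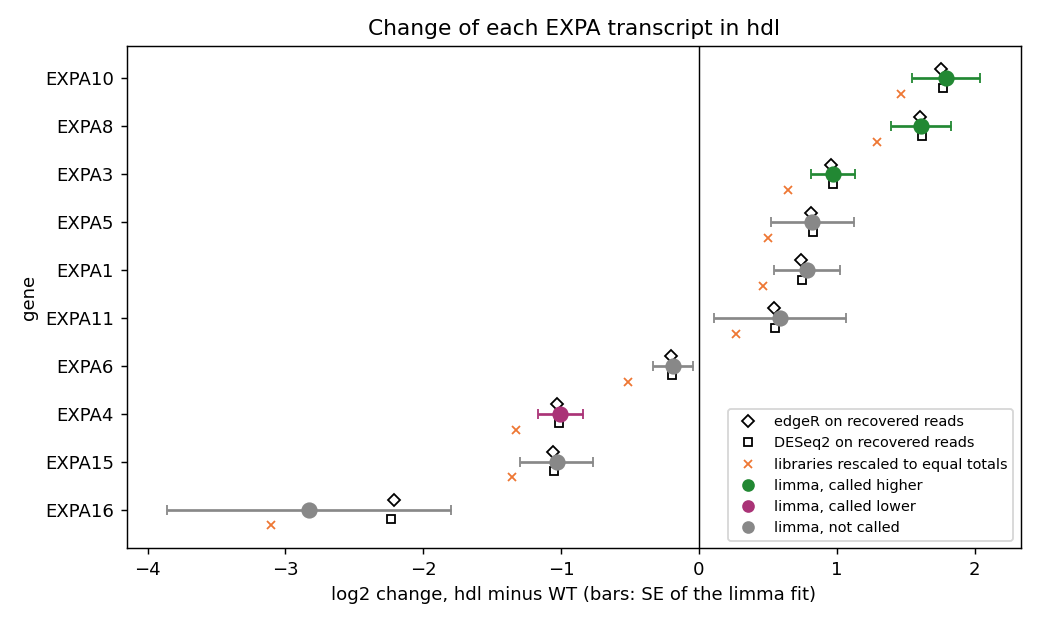
Log2 change (hdl minus WT) of each EXPA gene from limma, with bars for the SE, green where called higher, purple where called lower and grey where not called; open diamonds and squares are edgeR and DESeq2 on the recovered reads and crosses are limma on libraries rescaled to equal totals. Rescaling moves every gene toward lower values but turns no sign, and EXPA16 has the widest bar, at -2.83 ± 1.03.

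EXPA15 fell short of the threshold by a small margin. The gene (AT2G03090) lies on chromosome 2 from 916806 to 918671 on the minus strand. Its normalized counts were 930, 605 and 964 in WT, against 343 and 463 in hdl. The groups did not overlap, but WT replicate 2 was well below the other WT libraries. The log2 change was -1.03 ± 0.26 (SE, adjusted p = 0.0537), as large as that of EXPA4 but with a wider error. It passed with DESeq2 (adjusted p = 0.0057), with equal library totals (log2 change -1.35, adjusted p = 0.0267), with a pseudocount of 8 (0.0490), among genes without an opposite-strand neighbour (0.0416) and without WT replicate 2 (0.0035).

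EXPA1, which is known for a role in stomatal movement as well as in growth, was the member with the most reads. The gene (AT1G69530) lies on chromosome 1 from 26141726 to 26143538 on the plus strand. It had 1591, 954 and 1498 normalized counts in WT, against 2345 and 2190 in hdl. Both hdl libraries were above all WT libraries, with WT replicate 2 again the lowest. The log2 change was 0.78 ± 0.24 (SE) and did not pass (adjusted p = 0.0832). It passed with DESeq2 (0.75, adjusted p = 0.0345) and without WT replicate 2 (0.55, adjusted p = 0.00612), where the change itself was smaller.

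EXPA5, which is known to contribute to growth promoted by brassinosteroids, did not pass either. The gene (AT3G29030) lies on chromosome 3 from 11011262 to 11013451 on the minus strand. Its normalized counts were 226, 141 and 185 in WT, against 391 and 262 in hdl. The lower hdl library was only a little above the highest WT library, and the log2 change was 0.82 ± 0.30 (SE, adjusted p = 0.124).

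EXPA6 was the abundant member with the least difference between genotypes. The gene (AT2G28950) lies on chromosome 2 from 12431338 to 12433796 on the minus strand. It had 1347, 1180 and 1428 normalized counts in WT, against 1171 and 1135 in hdl. The upper hdl library lay just below the lowest WT library, and the log2 change of -0.19 ± 0.15 (SE, adjusted p = 0.403) did not pass. With equal library totals the change was -0.51 (adjusted p = 0.0632).

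EXPA11 was the only member whose genotypes overlapped. The gene (AT1G20190) lies on chromosome 1 from 6998335 to 6999839 on the minus strand. Its normalized counts were 146, 61.5 and 132 in WT, against 120 and 212 in hdl. The hdl libraries differed from each other by more than their mean differed from that of WT, and the log2 change was 0.59 ± 0.48 (SE, adjusted p = 0.428). It was 0.18 without hdl replicate 2 and 1.00 without hdl replicate 1.

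EXPA16 had the fewest reads of the 10 genes, and its value turned on 1 library. The gene (AT3G55500) lies on chromosome 3 from 20574752 to 20576249 on the minus strand. It had 77.4, 35.9 and 45.0 normalized counts in WT, which came from 73, 28 and 54 reads. In hdl it had 1.35 in replicate 1, which is 1 read, and 21.0 in replicate 2, which is 17 reads. Both hdl libraries were below WT, but as a ratio they differed from each other far more than the WT libraries did. The log2 change was -2.83 ± 1.03 (SE, adjusted p = 0.121). It was -1.21 without hdl replicate 1 (adjusted p = 0.38), and -4.44 without hdl replicate 2, when it passed (adjusted p = 0.0304). The fitted values on whole reads were -2.21 with edgeR and -2.23 with DESeq2.

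None of the 10 genes overlaps a gene on the opposite strand in the annotation, whereas 29.3% of the tested genes found there do. Reads shared between paralogs are a further concern in a gene family, and the coding sequences of the members were therefore compared. Over the 45 pairs the identity ranged from 56.9% to 81.1%, with a median of 63.7%. The closest pair was EXPA4 and EXPA16 at 81.1%, followed by EXPA1 and EXPA10 at 78.0% and EXPA4 and EXPA6 at 75.6%. Next came EXPA10 and EXPA15 at 75.0%, EXPA6 and EXPA16 at 73.3% and EXPA1 and EXPA15 at 73.2%. The longest stretch shared without a mismatch by the longest transcripts of any pair was 33 bases, in EXPA10 and EXPA15. EXPA1, EXPA10 and EXPA15 had log2 changes of 0.78, 1.79 and -1.03, and that of EXPA10 alone was called. In the group of EXPA4, EXPA6 and EXPA16 all values were negative, at -1.01, -0.19 and -2.83, and that of EXPA4 alone was called. EXPA3, the next closest member to these genes, went the other way and was called higher (log2 change 0.97). Its identity was 72.6% with EXPA6, 71.3% with EXPA4 and 70.5% with EXPA16.

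Because members of 1 family differ in transcript length, levels were compared between genes as normalized counts per kilobase of the longest annotated transcript. In WT the order of the mean levels was EXPA4, EXPA1, EXPA6, EXPA15, EXPA3, EXPA10, EXPA5, EXPA8, EXPA11 and EXPA16. EXPA4 led at 927 ± 126 normalized counts per kb (SD, n = 3), EXPA1 followed at 924 ± 236 and EXPA6 at 829 ± 79.5; the ranges of these neighbours over the libraries overlapped, so their order is not resolved. EXPA6, EXPA15 at 581 ± 138, EXPA3 at 359 ± 30.9 and EXPA10 at 168 ± 38.0 were each separated from the next, and from EXPA10 down to EXPA16, at 42.2 ± 17.5, neighbouring ranges overlapped again.

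In hdl the order was EXPA1, EXPA6, EXPA3, EXPA10, EXPA4, EXPA8, EXPA15, EXPA5, EXPA11 and EXPA16. EXPA1 stood apart at 1554 ± 74.8 normalized counts per kb (SD, n = 2). EXPA6 at 725 ± 15.9 and EXPA3 at 704 ± 75.5 overlapped, as did EXPA8 with EXPA15 and EXPA15 with EXPA5. EXPA10 at 573 ± 59.3 was above EXPA4 at 458 ± 0.66, the reverse of their order in WT. With the coding length in place of the transcript length, EXPA6 and EXPA1 traded places in WT and EXPA3 and EXPA6 in hdl, and both pairs are among those not resolved.

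The make-up of the EXPA transcript pool can be given as shares within a library, which no scaling between libraries affects. EXPA10 accounted for 4.23, 3.68 and 4.11% of the summed level per kb of the 10 genes in WT, against 11.9 and 10.9% in hdl. EXPA4 accounted for 20.5, 23.7 and 23.1% in WT and for 8.90 and 9.43% in hdl. The share of EXPA10 was thus higher and that of EXPA4 lower in every hdl library than in any WT library.

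The ratio of EXPA10 to EXPA4, both per kb, was 0.206, 0.155 and 0.178 in WT, against 1.34 and 1.16 in hdl. EXPA10 was therefore below EXPA4 in all 3 WT libraries and above it in both hdl libraries; the pair was chosen for its difference, so this is a description. EXPA15 held 13.8 ± 1.18% of the WT pool (SD, n = 3), against 5.64 ± 1.41% of the hdl pool (SD, n = 2). EXPA1 held 22.0 ± 2.33% and 31.1 ± 0.25%, and EXPA6 20.1 ± 1.73% and 14.5 ± 0.26%. The share of 9 of the 10 genes did not overlap between genotypes, all but EXPA11. Shares of 1 whole depend on each other and are not separate results.

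The summed level of the 10 genes was 4548, 3369 and 4554 normalized counts per kb in WT, against 5146 and 4862 in hdl. Both hdl libraries were above WT, by less than the gap between WT replicate 2 and the other WT libraries. As a share of all normalized counts in a library, the family took a mean of 0.0319% (SD 0.0054, n = 3) in WT libraries and 0.0307% (SD 0.00102, n = 2) in hdl libraries, and on this measure the hdl libraries lay within the range of WT.

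**Figure D3:**
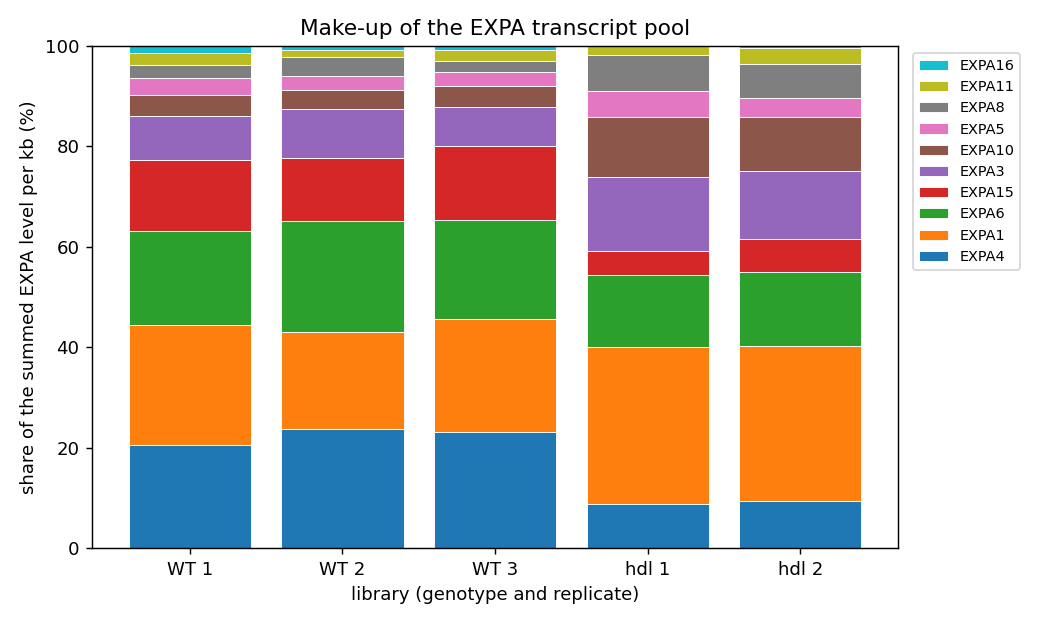
Share (%) of each EXPA gene in the summed level per kb of the 10 genes, 1 bar per library. EXPA4 (lowest segment) takes 20.5 to 23.7% in the WT libraries and 8.90 and 9.43% in the hdl libraries, and EXPA10 (brown) widens from between 3.68 and 4.23% to 10.9 and 11.9%.

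The 250 bases before the annotated start are shown for the 4 called genes and for EXPA1, the closest relative of EXPA10 among the members. Sequences are from the RefSeq assembly TAIR10.1, read 5′ to 3′ on the strand of the gene. Capitals mark matches on either strand to the TATA box (TATAAA), the auxin response element (TGTCTC) or the brassinosteroid response element (CGTGCG or CGTGTG). The L1 box (TAAATGCA or TAAATGTA), which is bound by epidermal homeodomain factors, and the G-box (CACGTG) were also searched and are in none of these 5 windows; no searched motif is in that of EXPA8. The windows are chr1:9259182-9259431 (plus strand) for EXPA10, chr1:26141476-26141725 (plus) for EXPA1, chr2:16950706-16950955 (minus) for EXPA8, chr2:15790140-15790389 (minus) for EXPA3 and chr2:16545747-16545996 (minus) for EXPA4.
EXPA10: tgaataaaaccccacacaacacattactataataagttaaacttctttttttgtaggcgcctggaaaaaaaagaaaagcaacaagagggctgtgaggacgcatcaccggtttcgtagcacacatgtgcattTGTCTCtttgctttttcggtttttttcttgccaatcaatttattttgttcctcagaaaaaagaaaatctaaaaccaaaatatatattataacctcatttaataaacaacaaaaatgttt
EXPA1: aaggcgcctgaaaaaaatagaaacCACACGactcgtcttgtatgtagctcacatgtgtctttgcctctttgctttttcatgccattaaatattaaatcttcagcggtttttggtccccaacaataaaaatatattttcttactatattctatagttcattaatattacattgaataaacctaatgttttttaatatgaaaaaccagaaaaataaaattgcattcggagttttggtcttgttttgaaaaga
EXPA8: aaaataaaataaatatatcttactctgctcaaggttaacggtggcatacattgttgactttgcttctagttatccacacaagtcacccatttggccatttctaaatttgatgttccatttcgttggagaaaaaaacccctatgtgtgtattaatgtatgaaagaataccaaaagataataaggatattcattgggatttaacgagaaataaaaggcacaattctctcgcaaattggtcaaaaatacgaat
EXPA3: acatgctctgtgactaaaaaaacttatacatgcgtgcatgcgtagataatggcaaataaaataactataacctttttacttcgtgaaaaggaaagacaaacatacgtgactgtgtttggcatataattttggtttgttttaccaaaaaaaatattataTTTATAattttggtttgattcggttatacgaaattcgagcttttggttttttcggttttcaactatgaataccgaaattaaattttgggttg
EXPA4: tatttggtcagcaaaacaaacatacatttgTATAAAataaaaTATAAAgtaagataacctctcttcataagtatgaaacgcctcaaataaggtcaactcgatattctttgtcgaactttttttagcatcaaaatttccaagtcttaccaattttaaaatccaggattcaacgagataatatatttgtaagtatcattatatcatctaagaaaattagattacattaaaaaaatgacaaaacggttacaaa

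EXPA10 carried an auxin response element from 119 to 114 bases before its start. EXPA1 carried a brassinosteroid response element from 226 to 221 bases before its start, on the opposite strand. EXPA3 and EXPA4 carried matches to the letters TATAAA, EXPA4 on its own strand at 220 and 208 bases and EXPA3 on the opposite strand at 92 bases. Whether these act as TATA boxes was not tested. EXPA10 and EXPA1 shared the run ctctttgctttttc of 14 bases, from 116 bases before the start in EXPA10 and from 186 in EXPA1. That was the longest run shared by any of the 45 pairs of windows, whose median was 9 bases.

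Over all 10 members the TATA box was found in 6 windows, the auxin response element in 3 (EXPA5, EXPA6 and EXPA10), the brassinosteroid response element in 2 (EXPA1 and EXPA6), the L1 box in 1 (EXPA5) and the G-box in 0. Among 27443 windows of protein-coding genes these motifs were in 47.3, 10.9, 6.71, 4.49 and 6.49%. The brassinosteroid response element and the G-box can overlap in sequence, and did not do so here since no G-box was present. No searched motif was common to all the called genes, since the window of EXPA8 held none. EXPA3 and EXPA4 both held a match to TATAAA. These matches describe the letters in the window and say nothing of binding.

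Of 15 other alpha-expansin genes 8 had a row in the table and 6 were tested, of which limma and edgeR called 0 higher and 1 lower and DESeq2 0 and 2, with a median log2 change of -0.89. Without adjustment limma had 0 higher and 4 lower at a p under 0.05, a threshold that 3385 of the 20391 tested genes passed as higher and 3148 as lower. With adjustment limma called 8.21% of all tested genes higher and 4.5% lower, edgeR 7.97% and 4.08%, and DESeq2 12.8% and 10.6%. The called gene was EXPA21, with 23.3, 28.2 and 17.5 normalized counts in WT and 0 in both hdl libraries (limma adjusted p = 0.0351). The call rested on 65 reads and passed the low-value filter through the WT libraries alone. A gene at 0 in both hdl libraries can enter the test only as lower, so this call is a description. The stricter filter removed EXPA21. Against a floor of 3 reads per hdl library it was at least 5.94-fold lower; it overlaps a gene on the opposite strand. With equal library totals 0 genes of this list were higher and 3 lower, and without WT replicate 1, WT replicate 3 or hdl replicate 1 limma called 0 in either direction, with 0 higher and 2 lower at an unadjusted p under 0.05 in each case.

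Beta-expansins, best known for loosening grass cell walls, had 2 tested members of 6, EXPB3 and EXPB1, and 0 were called in either direction by limma, where 1 was higher at an unadjusted p under 0.05. EXPB3 had 247, 85.8 and 257 normalized counts in WT, against 727 and 646 in hdl, a log2 change of 1.95 ± 0.49 (SE) that did not pass with limma (adjusted p = 0.0519) and passed with edgeR (adjusted p = 0.0492). Without WT replicate 2, limma called 1 of the beta-expansins higher and 0 lower, beside 3574 and 2295 of all genes. EXPB1 had a log2 change of -0.25 (adjusted p = 0.763). Over all tested genes limma called 8.21% higher and 4.5% lower, edgeR 7.97% and 4.08%, and DESeq2 12.8% and 10.6%. In lists of so few genes, 0 calls lies near these shares. Of 6 expansin-like genes 3 were tested and 0 were called by limma, edgeR or DESeq2, with 0 at an unadjusted p under 0.05. The most abundant were EXLA1, which overlaps an opposite-strand gene, at 0.36 (adjusted p = 0.186) and EXLA2 at 0.44 (adjusted p = 0.178).

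Xyloglucan endotransglucosylase/hydrolases (XTH) cut and rejoin the xyloglucan chains that lie between cellulose fibrils, and like the EXPA genes they moved in both directions. Of 33 genes 24 were tested, of which 5 were called higher and 3 lower, beside 8.21% and 4.5% of all tested genes. The median log2 change was 0.64, against -0.05 for all tested genes. With equal library totals 4.86% of all tested genes were called higher and 12.5% lower. Of all genes limma called 358 higher and 69 lower without WT replicate 3, and 3574 and 2295 without WT replicate 2. XTH31 had 53.0, 51.2 and 120 normalized counts in WT, against 1247 and 968 in hdl, a log2 change of 3.98 ± 0.42 (SE, adjusted p = 0.00628). XTH6 rose by 1.78 and XTH32 by 1.97, while XTH9 changed by -1.35. DESeq2 called 9 of the XTH genes higher and 5 lower, beside 12.8% and 10.6% of all tested genes. With equal library totals the counts were 3 and 5, without hdl replicate 1 they were 0 and 0, without WT replicate 3 they were 2 and 0, and without WT replicate 2 they were 13 and 6. They were 3 and 3 without hdl replicate 2, and 3 and 2 without WT replicate 1, without the low-value filter or without the intensity trend.

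No gene for the proton pumps that acidify the wall was called higher by limma. As limma called 8.21% of all tested genes higher and 4.5% lower, 0 among so few pump genes lies near that share. Of 11 plasma membrane H+-ATPase genes 10 were tested, of which 0 were called higher and 2 lower by limma and by edgeR, and 1 higher and 2 lower by DESeq2; without adjustment limma had 1 higher at a p under 0.05. With limma the counts were 2 higher and 2 lower without WT replicate 2, 0 and 1 without hdl replicate 2, and 0 and 0 without WT replicate 3 or hdl replicate 1 (at an unadjusted p under 0.05, 1 and 2 and 0 and 2). Over all tested genes edgeR called 7.97% higher and 4.08% lower, and DESeq2 12.8% and 10.6%. Of all genes limma called 3574 higher and 2295 lower without WT replicate 2, and 358 and 69 without WT replicate 3. The median log2 change of the pump genes was 0.02 with limma, -0.02 with edgeR and -0.01 with DESeq2. AHA1 and AHA2 (HA1 and HA2 in the annotation), the main pumps of most tissues, had log2 changes of 0.25 (adjusted p = 0.228) and 0.06 (adjusted p = 0.84); they were named after their values were seen. The called genes were AHA3 (HA3), a pump known from phloem companion cells, at -1.06 (adjusted p = 0.0121), and AHA9 (HA9), which overlaps an opposite-strand gene, at -2.13 (adjusted p = 0.0103). Of SAUR19 to SAUR24, small auxin-induced genes whose products activate these pumps, 1 was tested (AT5G18030), with a log2 change of 1.70 (adjusted p = 0.241).

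Of 9 transcriptional regulators of expansin genes and elongation growth, 1 was called higher and 0 lower by limma and DESeq2 and 0 and 0 by edgeR, with a median log2 change of 0.48. The shares over all tested genes were 8.21% higher and 4.5% lower by limma, 7.97% and 4.08% by edgeR and 12.8% and 10.6% by DESeq2. Without adjustment limma had 4 higher and 0 lower at a p under 0.05, beside the 3385 and 3148 of all tested genes. The called gene was BES1, a brassinosteroid signalling factor, with 3436, 1760 and 3282 normalized counts in WT, against 6484 and 6204 in hdl. Its log2 change was 1.23 ± 0.30 (SE, adjusted p = 0.0487), it overlaps an opposite-strand gene and it did not pass with edgeR (adjusted p = 0.0518). With limma 0 of the 9 were higher with equal library totals, without the low-value filter, with a pseudocount of 0.5, without the intensity trend and without any 1 of WT replicate 1, WT replicate 3, hdl replicate 1 or hdl replicate 2, where between 1 and 4 were higher at an unadjusted p under 0.05; without hdl replicate 2, 1 was lower, and without WT replicate 2, 4 were higher and 0 lower. Of all genes limma called 3574 higher and 2295 lower without WT replicate 2. HBI1, named after its values were seen as the regulator of EXPA1 and EXPA8, had a log2 change of 0.68 (adjusted p = 0.122).

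**Figure D4:**
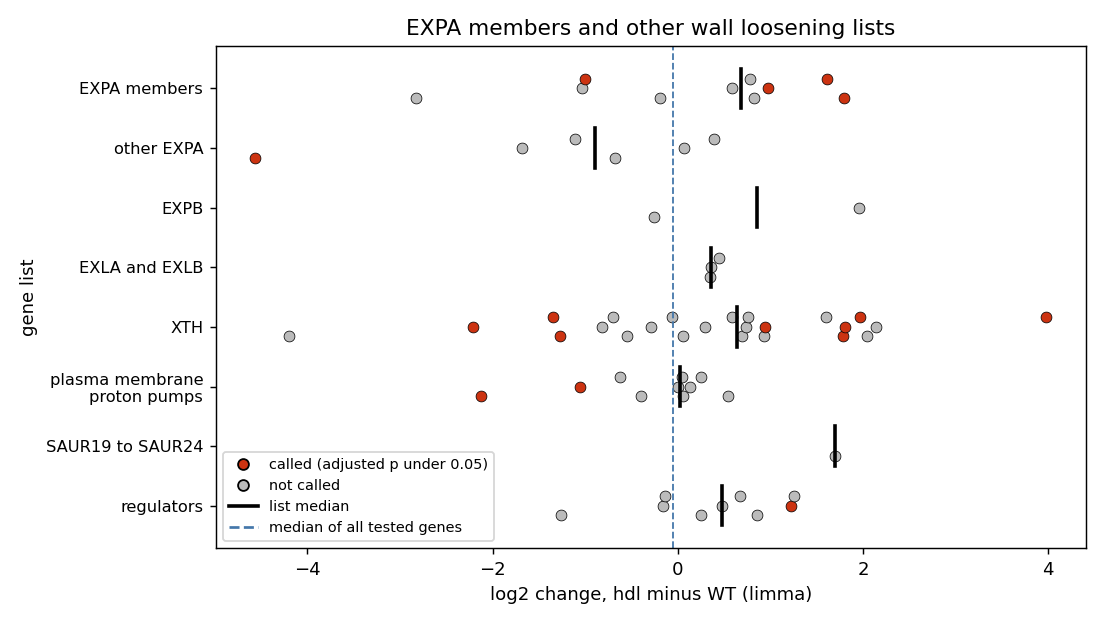
Log2 change (hdl minus WT, limma) of the EXPA members and of each tested gene in 7 other lists of wall loosening genes; red points were called, grey points were not, black bars are list medians and the dashed line is the median of all tested genes, -0.05. Called genes lie on both sides of 0 among the EXPA members and the XTH genes, and the called proton pump genes both lie below 0.

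Across the 5 libraries the level of EXPA1, the member with the highest mean, followed the same pattern as many other genes. The 5 most alike among 16925 genes with a mean of at least 50 normalized counts were AT1G45688, TSA1, RKP, ASN2 and PYL5, each with Pearson's r above 0.99 on the log2 scale over 5 libraries that fall into 2 genotypes. As 298 genes exceeded an r of 0.99, this likeness singles out none of them.

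Markers of cell types were read beside the EXPA values, since fewer cells of a type and less RNA per cell cannot be told apart in bulk samples. Epidermal markers were present in all libraries. The 6 genes summed to between 21462 and 23958 normalized counts in WT and between 59277 and 66485 in hdl. Of these, 4 were called higher and 0 lower, in the direction of EXPA10, EXPA8 and EXPA3, and none was at 0. These 4 were LTP1 (log2 change 2.30), CER6 (1.80), FDH (1.08) and PDF2 (0.87). ATML1 (0.23, limma adjusted p = 0.54) and PDF1 (-0.21, adjusted p = 0.431) were not called. Over all tested genes 8.21% were called higher and 4.5% lower. The 8 vascular markers summed to between 47105 and 79138 in WT and between 27397 and 29821 in hdl. Of these, 0 were called higher and 4 lower, in the direction of EXPA4. SUC2 (log2 change 0.39) and SWEET11 (0.46) went the other way and were not called. The 7 mesophyll markers summed to between 609909 and 774725 in WT and between 1101288 and 1142361 in hdl. Of these, 2 were called higher and 0 lower, in the direction of EXPA10, EXPA8 and EXPA3, like the called epidermal markers. LHCB1.3 (log2 change -0.13) went the other way and was not called. The 4 guard cell markers summed to between 516 and 687 in WT and between 362 and 456 in hdl. Of these, 0 were called higher and 1 lower, FAMA (log2 change -1.98), in the direction of EXPA4, like the called vascular markers. MYB60 (0.68) went the other way and was not called. No marker of any list was at 0 in any library. The part of these shifts in the EXPA values was not tested.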

How the data were processed

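RNA was sequenced from sorted leaf epidermal protoplasts of 3 WT and 2 hdl samples. The authors deposited a gene table of DESeq2-normalized counts, per its file name, which is a signal scaled by library. DESeq2, deepTools, SAMtools 1.16.1, Bowtie2 2.5.0, Trimmomatic 0.33 and FastQC 0.11.9 are listed with build TAIR10, per the submitters' processing notes. How reads were assigned to genes, and with which strand setting, is not given in the sources used here. A second table, of raw counts for other features, was not used here.

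The signal was tested on log2(value + 1) with limma 3.58.1 in R 4.3.3, with an intensity trend, no covariate and all 5 libraries. Genes reaching 10 normalized counts in 2 or more libraries entered, and p-values were adjusted by the Benjamini-Hochberg method over all of them. The pseudocount shrinks changes of low genes. Dividing by the smallest value of a library gave whole reads (within 0.01) for 100% of its values, and these were tested with edgeR 4.0.16 and DESeq2 1.42.0 as alternatives. edgeR called 1625 genes higher and 832 lower, and DESeq2 2619 and 2152. Floors of 3 reads cover counting error only.

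Of 24200 identifiers 24108 were found in the NCBI annotation of TAIR10.1, matched by identifier and never by coordinates. Coding sequences were aligned with MAFFT 7.526; they took the place of the planned protein comparison and RefSeq promoter table, which were not used here. A second locus that carries the name SAUR21 was left out of its list. limma was tested on simulated data.

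The members and lists were chosen with earlier results of these data known. Named are all members, up to 4 called genes of each list by smallest p or else its 2 most abundant genes, and the 5 genes most like the leading member; others are marked. Alternatives changed the tool, scaling, filter, pseudocount, trend, gene set, libraries and replicate block.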

Additional observations from a re-analysis of the deposited data

How the results depend on the processing

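No member changed sign under any alternative run. No member's call changed with edgeR, without a filter, with the stricter filter or with a pseudocount of 0.5, apart from EXPA16, which the stricter filter removed. With DESeq2, EXPA1 (0.75) and EXPA15 (-1.05) also passed. EXPA15 also passed with equal totals (-1.35), a pseudocount of 8 (-1.02) and without genes overlapping the opposite strand (-1.03), which made 2 members lower in each of these 4 alternatives. Without the intensity trend EXPA3 (0.97) and EXPA4 (-1.01) did not pass, leaving 0 lower. Over all genes, DESeq2 called 2619 higher and 2152 lower, equal totals 994 and 2553, and no trend 679 and 467. Equal totals moved the median of all genes from -0.05 to -0.37. The cause was not tested.

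The replicate numbers 1 and 2 are shared by the genotypes, but no label says that they mark a pairing. Deviations from the group means correlated at 0.0048 for replicate 1 and at -0.0123 for replicate 2. With 2 hdl libraries the deviations of hdl mirror each other, so these values are not separate checks on a pairing. With the replicate number as a block, 0 members were higher and 0 lower, and 0 and 0 of all genes, by limma (at an unadjusted p under 0.05, 5 and 2 members and 2526 and 2003 genes); EXPA10 was then 1.88 (adjusted p = 0.0696), EXPA8 1.52 (0.0941), EXPA3 0.97 (0.108) and EXPA4 -0.91 (0.116), with 1 WT library left unpaired.

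Leaving out 1 library at a time, with a lone hdl library assumed to vary like WT, gave log2 changes of 0.55 to 0.92 for EXPA1, 0.86 to 1.08 for EXPA3, -1.11 to -0.91 for EXPA4, 0.53 to 1.11 for EXPA5, -0.27 to -0.13 for EXPA6, 1.52 to 1.70 for EXPA8, 1.59 to 1.90 for EXPA10, 0.18 to 1.00 for EXPA11, -1.25 to -0.81 for EXPA15 and -4.44 to -1.21 for EXPA16. Members called ranged from 0 to 4 higher and from 0 to 2 lower, and all genes from 0 to 3574 and from 0 to 2295. For all genes the lowest counts came without hdl replicate 1. For the members, 0 were also called in either direction without WT replicate 3, and 0 were lower without WT replicate 1. The highest counts came without WT replicate 2. Depth limits EXPA16, at 1 to 73 reads.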
